A study of Rattus norvegicus with 8 samples.

Results

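*Shox2*, *Tcf7l2*, *Lef1*, *Lhx9* and *Prkcd* are 5 genes known from thalamic neurons, though not only from them, and they were followed here in RNA of the rat hippocampus. They were found by their NCBI GeneID among 22601 genes (25546, 679869, 161452, 289048 and 170538, in that order), and all 5 were present with a mean above 0.1 FPKM, the limit for testing that 15593 genes passed. *Shox2* was chosen by its measured values in these libraries, low in the PTZ group and higher in the Q808 group, so that its levels are a description without a test. The question was whether the other 4 genes, which were named for their place in the thalamus, followed *Shox2* from library to library.

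Hippocampal RNA of 8 wild-type Wistar rats of 180 to 220 g was sequenced, with 1 library per rat. The Con. group (n = 3) was given saline, while the PTZ group (n = 3) and the Q808 group (n = 2) were kindled with pentylenetetrazole (PTZ), a convulsant that blocks GABA-A receptors, in 14 injections of 35 mg/kg, given every 48 h over 28 days, with a final dose of 60 mg/kg. For the following 28 days the Q808 group was given the anticonvulsant candidate Q808 by gavage at 30 mg/kg daily, and the Con. and PTZ groups were given its solvent. Rats of the PTZ and Q808 groups also shared a further sub-convulsive PTZ injection on the day after the last gavage, before the tissue was taken. The age and sex of the rats are not given in the sources used here.

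Thalamic relay neurons carry sensory and motor signals to the cortex and fire in tonic or burst mode, the latter by way of HCN pacemaker channels and T-type calcium channels, and thalamocortical bursting accompanies several kinds of seizure. *Shox2* and *Lhx9* encode homeodomain transcription factors and *Tcf7l2* and *Lef1* encode HMG-box factors that act with beta-catenin at the end of the canonical Wnt pathway. *Prkcd* encodes protein kinase C delta, which is no transcription factor but is abundant in relay neurons. Outside the thalamus, *Tcf7l2* is also used by cells of the oligodendrocyte lineage and *Lef1* by brain endothelium.

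Values are FPKM, fragments per kilobase of transcript relative to all mapped fragments, and differences are on the log2(FPKM + 0.1) scale, which understates the change of low genes. The low values were whole multiples of a fixed step, the value of 1 read, from which the reads behind a value and the relative depth were recovered; relative to Con.-1, depth lay between 0.854 in PTZ-3 and 1.19 in Con.-2. Sums of 6 striatum markers were 334 to 854 FPKM in Con.-3, PTZ-3 and Q808-1 and 16.6 to 32.4 FPKM in the other 5 libraries, so that 1 library of each group stood apart. In these 3 libraries, markers of dentate granule cells (17.0 to 21.7 FPKM against 76.4 to 120) and of hippocampal pyramidal cells (73.4 to 178 FPKM against 285 to 353) were also low. Each comparison is therefore also given within the 5 and within the 3 libraries.

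*Shox2*, a homeobox gene needed for pacemaker cells of the heart and for thalamocortical neurons, was a low-level gene in all libraries. It measured 0.627, 0.377 and 0.226 FPKM in Con.-1, Con.-2 and Con.-3, from 14, 10 and 5 reads. It was listed at 0 in PTZ-1 and PTZ-2, where a count of 0 allows up to 0.124 and 0.121 FPKM by the one-sided limit of 3 reads (0.153 and 0.149 FPKM by the two-sided exact interval), and measured 0.105 FPKM in PTZ-3, from 2 reads. In Q808-1 and Q808-2 it measured 1.29 and 1.29 FPKM, from 25 and 30 reads. The order of the groups was thus Q808, Con. and PTZ, with no overlap between any of them, as was also the case for 9.15% of all tested genes in PTZ against Con., 15.6% in Q808 against PTZ and 20.0% in Q808 against Con. Because this order chose the gene, nothing is read from it.

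**Figure D1:**
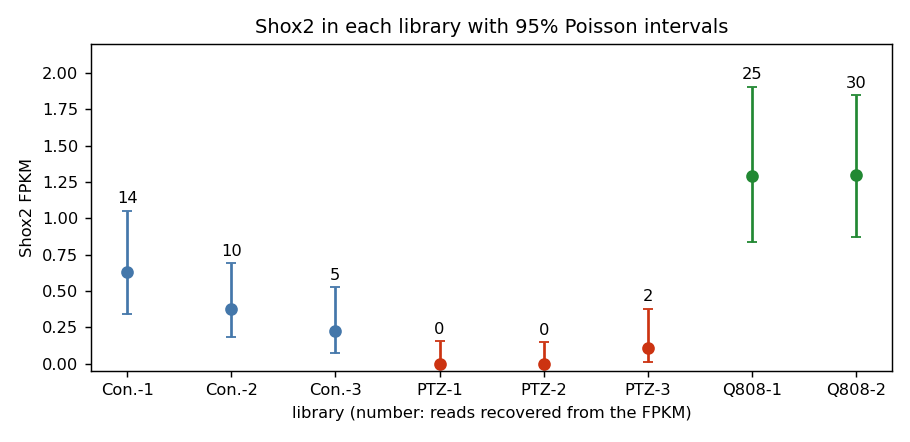
*Shox2* FPKM (vertical axis) in each of the 8 libraries (horizontal axis), with exact 95% Poisson intervals as bars and the recovered reads as numbers. The 2 Q808 libraries rest on 25 and 30 reads and the 3 PTZ libraries on 0, 0 and 2.

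The size of the *Shox2* difference was poorly fixed by so few reads. With reads summed over each group and scaled for depth, the Q808 libraries held 44.0 times the *Shox2* reads of the PTZ libraries (exact 95% interval 11.6 to 372, 55 against 2 reads), and 3.17 times those of the Con. libraries (1.98 to 5.15, 55 against 29 reads). The Con. libraries held 13.9 times the reads of the PTZ libraries (3.52 to 120). These intervals cover counting error only, not the spread between rats. Since *Shox2* was chosen for this order of groups, the ratios can be too large, and the intervals are no test of it. On the log2 scale the differences were -1.93 for PTZ against Con., 3.46 for Q808 against PTZ and 1.53 for Q808 against Con. Within the 5 libraries they were -2.56, 3.80 and 1.24, and within the 3 libraries, with 1 per group, -0.67, 2.76 and 2.09. Within the 3, the step from Con.-3 to PTZ-3 was one from 5 to 2 reads, whose exact 95% Poisson intervals overlapped (0.0733 to 0.527 and 0.0127 to 0.379 FPKM).

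Depth relative to Con.-1 was 1.08, 1.11 and 0.854 in the PTZ libraries and 0.867 and 1.04 in the Q808 libraries. Summed markers of the choroid plexus moved with *Shox2* in the 5 libraries, at 6473 FPKM in Q808-2, 2547 and 2521 FPKM in Con.-1 and Con.-2, and 410 and 278 FPKM in PTZ-1 and PTZ-2. Summed meningeal fibroblast markers stood in the same order of groups there, at 65.1 FPKM in Q808-2, 27.1 and 23.2 FPKM in Con.-1 and Con.-2, and 21.1 and 19.1 FPKM in PTZ-1 and PTZ-2. In Con.-3, PTZ-3 and Q808-1 the choroid plexus sum was 92.7, 491 and 164 FPKM and the meningeal sum 6.16, 33.2 and 15.9 FPKM. The part of these cell types in the *Shox2* values was not tested. In tissue RNA, fewer cells of a type and less RNA per cell cannot be told apart.

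**Figure D2:**
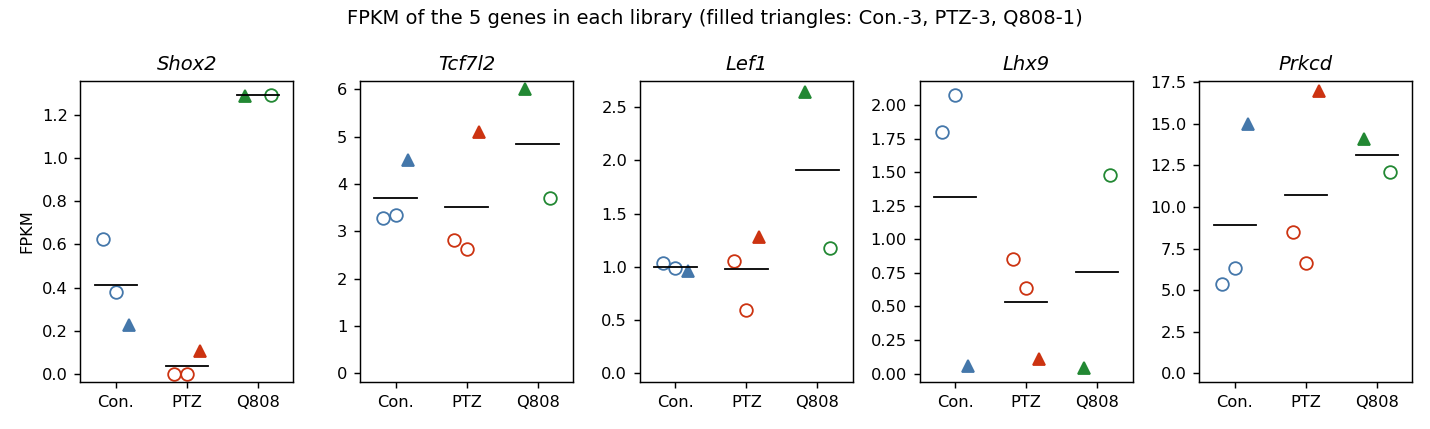
FPKM (vertical axis, from about 0 in each panel) of the 5 genes in the Con., PTZ and Q808 groups (horizontal axis), 1 point per library, with the group mean as a line and filled triangles for Con.-3, PTZ-3 and Q808-1. The groups of *Shox2* are apart, which is how it was chosen. *Lhx9* is near 0 in the 3 triangles, and *Prkcd* is highest there.

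The HMG-box genes were tested next. *Tcf7l2*, an effector of Wnt signaling and a regulator of thalamic and habenular identity, measured 3.28, 3.35 and 4.51 FPKM in the Con. libraries (3.71 ± 0.690, SD, n = 3), 2.82, 2.63 and 5.10 FPKM in the PTZ libraries (3.52 ± 1.37, n = 3) and 6.01 and 3.70 FPKM in the Q808 libraries (4.86 ± 1.63, n = 2). The highest value of every group came from its striatum-rich library, and the groups overlapped in every comparison. The log2 difference was -0.12 for PTZ against Con. (SE 0.31, limma adjusted p = 0.999), 0.48 for Q808 against PTZ (SE 0.40, adjusted p = 0.952) and 0.35 for Q808 against Con. (SE 0.29, adjusted p = 0.901). Their 95% intervals, -0.85 to 0.60, -0.48 to 1.44 and -0.38 to 1.09, each include 0. Leaving out Q808-1 gave 0.14 for Q808 against PTZ and 0.01 for Q808 against Con., and leaving out Q808-2 gave 0.82 and 0.70. Within the 5 libraries, the differences were -0.27, 0.43 and 0.16, the same order of groups as for *Shox2* at a fraction of its size.

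*Lef1*, the close relative of *Tcf7l2*, was lower, at 1.04, 0.986 and 0.965 FPKM in the Con. libraries (0.996 ± 0.0371, n = 3), 1.06, 0.596 and 1.28 FPKM in the PTZ libraries (0.977 ± 0.348, n = 3) and 2.64 and 1.18 FPKM in the Q808 libraries (1.91 ± 1.03, n = 2). Q808-1 was more than any other library, and PTZ-3 (1.28) lay above Q808-2 (1.18). *Lef1* was the only one of the 4 tested genes with groups that did not overlap, and only in Q808 against Con., where the same held for 20.0% of all tested genes. There its log2 difference was 0.77 (SE 0.39, limma adjusted p = 0.901, higher in 2 of 2 Q808 libraries), which missed the call. Without Q808-2 it was called at 1.32 (limma adjusted p = 0.359), on the lone library Q808-1, which is assumed to vary like the others, in a fit that called 11.5% of all tested genes, and without Q808-1 it was 0.23. The differences were -0.08 for PTZ against Con. (SE 0.34, adjusted p = 0.999) and 0.86 for Q808 against PTZ (SE 0.50, adjusted p = 0.952). Endothelial markers, summed, were also highest in Q808-1 (178 FPKM) and next in PTZ-3 (157 FPKM) against 66.7 to 98.0 FPKM elsewhere, and microglia markers were highest in Q808-1 (315 FPKM against 131 to 210), and their part in the *Lef1* values was not tested.

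The promoters of the 2 HMG-box genes are shown because both factors bind a CAAAG core, and their own start regions can be read for it. Of the 5 genes, 3 had an entry in the RefSeq promoter table (GRCr8; 250 bases before to 50 after the start of the gene), which also covers *Prkcd*. In the sequences, 5′ to 3′ on the strand of the gene, capitals mark CAAAG or, for the other strand, CTTTG. The *Tcf7l2* window is chr1:264791085-264791384 (+) and that of *Lef1* chr2:222340463-222340762 (+).
Tcf7l2: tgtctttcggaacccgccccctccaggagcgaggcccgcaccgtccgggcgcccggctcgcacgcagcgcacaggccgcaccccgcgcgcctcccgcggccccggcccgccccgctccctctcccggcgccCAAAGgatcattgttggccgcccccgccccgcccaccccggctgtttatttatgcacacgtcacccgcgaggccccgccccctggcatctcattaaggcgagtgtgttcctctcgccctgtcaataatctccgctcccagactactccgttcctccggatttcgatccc
Lef1: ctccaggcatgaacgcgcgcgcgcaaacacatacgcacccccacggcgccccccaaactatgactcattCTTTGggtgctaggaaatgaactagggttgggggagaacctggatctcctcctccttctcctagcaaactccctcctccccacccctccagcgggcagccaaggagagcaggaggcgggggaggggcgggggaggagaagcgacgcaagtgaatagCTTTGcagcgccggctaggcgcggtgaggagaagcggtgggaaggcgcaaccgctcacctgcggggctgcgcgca
The core was present 1 time in the *Tcf7l2* window and 2 times in the *Lef1* window. Of all 33469 promoters, 53.8% held it at least 1 time and 20.2% at least 2 times, so that a match in a window of this length is common, and it is a description of letters and not of binding.

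For the rest of the Wnt pathway, calls are read beside those over all tested genes, 2.53% in PTZ against Con., 1.92% in Q808 against PTZ and 3.46% in Q808 against Con. None of 19 tested ligands and R-spondins (such as *Wnt4* and *Wnt7b*), of 15 receptors (such as *Lgr4* and *Fzd9*), of 7 inhibitors (such as *Dkk3* and *Frzb*) and of 9 feedback targets (such as *Apcdd1* and *Tnfrsf19*) was called in any of the 3 comparisons. Among 20 genes of beta-catenin, its destruction complex and its partners, 2 were called in PTZ against Con., 0 in Q808 against PTZ and 1 in Q808 against Con. These were *Tle1*, *Tle3* and *Tle2*, which encode Groucho corepressors that bind TCF and LEF factors, while *Tle4* of the same family was not called. *Tle1* was lower in PTZ against Con. (log2 difference -0.75, limma adjusted p = 0.999), *Tle3* was higher there (0.64, adjusted p = 0.999) and *Tle2* was higher in Q808 against Con. (0.75, adjusted p = 0.901). *Tle1* read 12.2, 10.4 and 7.61 FPKM in the Con. and 6.56, 5.12 and 5.88 FPKM in the PTZ libraries, and *Tle3* 6.73, 7.11 and 4.77 against 11.1, 9.01 and 8.77 FPKM. For the feedback targets, which are read as an output of the pathway, the median log2 difference in Q808 against PTZ was 0.42 against 0.10 over all tested genes, with 0.33 within the 5 libraries and 0.07 within the 3 libraries. Of these 9 genes, 7 were higher and 2 lower. The lower ones were *Apcdd1* and *Axin2*, the latter named after its values were seen. *Axin2* measured 4.93 and 5.21 FPKM in the Q808 and 5.70, 5.98 and 6.83 FPKM in the PTZ libraries. The median is thus no measure of a common change.

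*Lhx9*, a LIM homeobox gene of the developing thalamus, divided the libraries along the striatum markers and not along the groups. It measured 1.80 and 2.08 FPKM in Con.-1 and Con.-2 but 0.0578 FPKM in Con.-3. It measured 0.855 and 0.634 FPKM in PTZ-1 and PTZ-2 but 0.105 FPKM in PTZ-3, and 1.48 FPKM in Q808-2 but 0.0378 FPKM in Q808-1. The 3 striatum-rich libraries held 7, 11 and 4 reads and the other 5 between 86 and 301, with no overlap between the sets. Other genes, such as *Wnt4* and *Tnnt1*, also parted these sets. The share of all tested genes that do so was not counted, so that the division is not read as particular to *Lhx9*. The groups overlapped in every comparison. The log2 differences were -0.73 for PTZ against Con. (SE 1.10, limma adjusted p = 0.999), -0.17 for Q808 against PTZ (SE 1.16, adjusted p = 0.985) and -0.90 for Q808 against Con. (SE 1.54, adjusted p = 0.923).

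Without the 3 libraries, *Lhx9* was lower in PTZ against Con. by the call (log2 difference -1.28, SE 0.27, n = 2 and 2, limma adjusted p = 0.118), in 2 of 2 PTZ libraries, while 9.81% of all tested genes were called in that fit. Leaving out Con.-3 alone gave a call (-1.96, limma adjusted p = 0.778), with 4.10% of all tested genes called, and leaving out PTZ-3 alone gave -0.05. The fits without Con.-3 alone and without PTZ-3 alone each keep a striatum-rich library in only 1 group. Group and striatum share cannot be told apart in those fits. In Q808 against PTZ the difference turned to 0.91 without the 3 libraries (SE 0.38, not called), and within the 3 libraries it was -0.58. *Lhx9* thus stood in the order Con., Q808 and PTZ in the 5 libraries, and *Shox2* in the order Q808, Con. and PTZ. Of its LIM homeobox relatives and their LDB partners, such as *Ldb1* and *Lhx2*, 8 of 13 were tested and none was called in any comparison, with median differences of 0.09 for PTZ against Con., -0.05 for Q808 against PTZ and 0.26 for Q808 against Con., beside -0.04, 0.10 and 0.04 over all genes.

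*Prkcd*, the kinase among the 5 genes, was the most abundant in FPKM. It measured 5.40, 6.32 and 15.0 FPKM in the Con. libraries (8.91 ± 5.30, n = 3), 8.52, 6.61 and 17.0 FPKM in the PTZ libraries (10.7 ± 5.52, n = 3) and 14.1 and 12.1 FPKM in the Q808 libraries (13.1 ± 1.41, n = 2). The striatum-rich libraries were again the highest of their groups, and the groups overlapped in every comparison. The log2 difference was 0.30 for PTZ against Con. (SE 0.48, limma adjusted p = 0.999), 0.40 for Q808 against PTZ (SE 0.40, adjusted p = 0.952) and 0.70 for Q808 against Con. (SE 0.46, adjusted p = 0.901).

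Among the 5 other libraries, Q808-2 stood above the rest for *Prkcd*, with 12.1 FPKM against 5.40 to 8.52. Without the 3 striatum-rich libraries *Prkcd* was called higher in Q808 against PTZ (log2 difference 0.68, SE 0.22, limma adjusted p = 0.381) and in Q808 against Con. (1.04, SE 0.19, limma adjusted p = 0.690), each on the lone library Q808-2, and 9.26% and 4.71% of all tested genes were called in those fits. Leaving out PTZ-3 alone (0.79, limma adjusted p = 0.428) or Con.-3 alone (1.15, limma adjusted p = 0.664) gave the same calls, in fits that called 10.1% and 4.51% of all tested genes. Those fits set the striatum-rich Q808-1 against a group without such a library, so that group and striatum share cannot be told apart in them. Within the 3 libraries the differences were -0.27 and -0.09. None of 8 protein kinase C relatives, such as *Prkcb*, was called in any comparison.

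**Figure D3:**
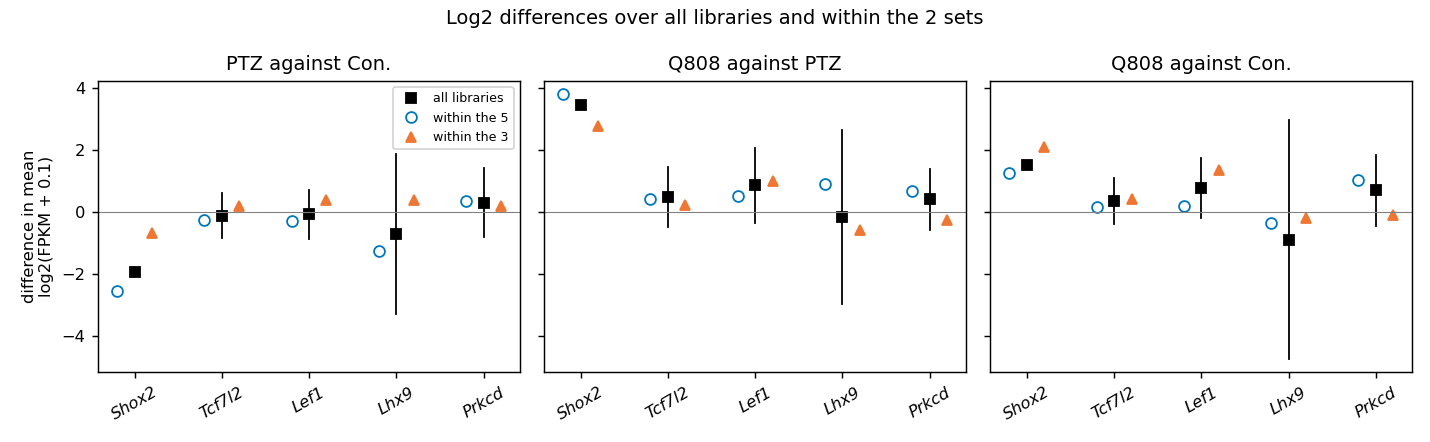
Difference in mean log2(FPKM + 0.1) (vertical axis) of the 5 genes in the 3 comparisons (panels), as squares over all libraries with 95% limma intervals for the 4 tested genes, as circles within the 5 libraries and as triangles within the 3 libraries. The sign of *Shox2*, which was chosen for its order of groups, is the same in both sets, and the sets are opposite for *Lhx9* in PTZ against Con. (-1.28 and 0.38) and in Q808 against PTZ (0.91 and -0.58).

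Of the 4 tested genes, 0 were called in any of the 3 comparisons with limma over all libraries, and 0 had an unadjusted p under 0.05. The call asked for an unadjusted p under 0.05 and more than 1.5-fold, which 2.53% of all tested genes reached in PTZ against Con., 1.92% in Q808 against PTZ and 3.46% in Q808 against Con. With so low a background, 0 of 4 is no result about these genes. Q808 against PTZ and PTZ against Con. share the PTZ libraries, and both Q808 comparisons share the Q808 libraries, so that the 3 differences of a gene are not independent. With the replicate number as a block, 616 in place of 395 genes were called in PTZ against Con., although a pairing by number is not shown. In that comparison 0 of the 4 were called with the block, at -0.12 for *Tcf7l2*, -0.08 for *Lef1*, -0.73 for *Lhx9* and 0.30 for *Prkcd* (limma adjusted p between 0.820 and 0.972). In Q808 against PTZ the block called *Tcf7l2*, *Lef1* and *Prkcd*, and 12.15% of all tested genes. In Q808 against Con. it called *Prkcd*, and 6.90% of all tested genes.

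The other thalamic genes ordered the libraries differently as a sum and as a mean of logs. All 12 genes of the relay nuclei list were tested, and their sum lay between 38.5 and 46.4 FPKM in the Con. libraries, between 41.0 and 43.9 FPKM in the PTZ libraries and at 49.6 and 50.2 FPKM in the Q808 libraries. By this sum the PTZ libraries lay within the range of the Con. libraries and the Q808 libraries above both groups. How often sums of other genes do the same was not counted. By the mean log2 value of the same 12 genes, which weights low genes more, the groups overlapped, at 1.26, 1.36 and 1.53 in the Con., 1.31, 1.10 and 1.52 in the PTZ and 1.69 and 1.46 in the Q808 libraries. None of the 12 was called in PTZ against Con. or in Q808 against PTZ. *Ramp3*, which sorts receptors of the calcitonin family, was called higher in Q808 against Con. (log2 difference 0.59, SE 0.20, limma adjusted p = 0.901, higher in 2 of 2 libraries). In that comparison 3.46% of all tested genes were called, and for 20.0% the groups did not overlap. A single call among 12 genes is thus no result about the list. The median log2 difference of the 12 was -0.00 for PTZ against Con., 0.25 for Q808 against PTZ and 0.21 for Q808 against Con., beside -0.04, 0.10 and 0.04 over all tested genes.

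**Figure D4:**
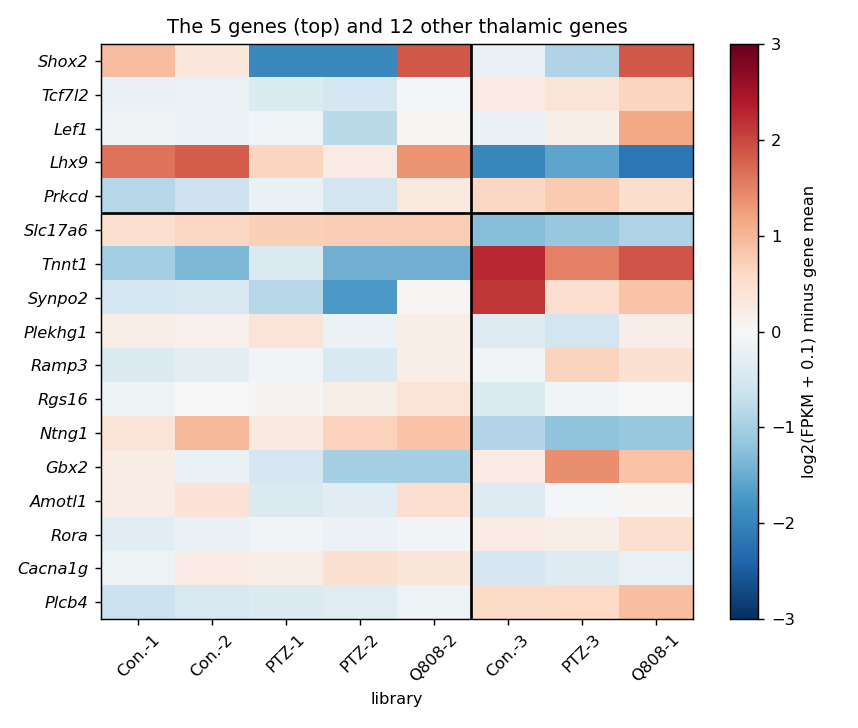
Log2(FPKM + 0.1) minus the mean of the gene over 8 libraries (color) for the 5 genes (top) and 12 other thalamic genes (below) in the 5 libraries at left and in Con.-3, PTZ-3 and Q808-1 at right. *Shox2* is lowest in the PTZ libraries of both sets, while *Tnnt1* and *Slc17a6* change between the sets.

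Within the list, genes differed between the sets of 3 and 5 libraries in both directions, as in *Tnnt1* and *Slc17a6*, which were named here with *Amotl1* after their values were seen. *Tnnt1*, a troponin gene with strong thalamic expression, measured 7.41 to 12.5 FPKM in the 3 libraries and 0.861 to 1.86 FPKM in the other 5. *Slc17a6*, the vesicular glutamate transporter of relay neurons, measured 1.31 to 1.72 FPKM in the 3 and 4.75 to 5.76 FPKM in the 5. *Amotl1*, an angiomotin relative, came closest to *Shox2* in the list, at 5.72, 6.62 and 3.75 FPKM in the Con., 3.60, 3.86 and 4.81 FPKM in the PTZ and 5.01 and 7.04 FPKM in the Q808 libraries. Its groups did not overlap in Q808 against PTZ (log2 difference 0.54, SE 0.28, limma adjusted p = 0.952), as held for 15.6% of all tested genes. Because *Amotl1* was picked for its likeness to *Shox2*, nothing is read from this.

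Markers of the habenula, which adjoins the thalamus and also uses *Tcf7l2*, stood at unlike levels in these libraries. Of its 6 markers 3 were tested and none was called, which for so few genes is no result. These were *Lrrc55*, at 4.07 to 5.50 FPKM, *Chrna3*, at 0.108 to 1.265 FPKM, and *Chrnb4*, at 0.0544 to 0.442 FPKM. Its defining genes *Gpr151*, *Pou4f1* and *Chrnb3* did not exceed 0.0622 FPKM in any library. The pacemaker and T-type channel list was led by *Hcn2*, at 39.3 to 60.8 FPKM in the Con., 39.9 to 50.3 FPKM in the PTZ and 76.4 and 41.3 FPKM in the Q808 libraries. Of its 7 genes, 1 was called in PTZ against Con., where 2.53% of all tested genes were called, and none in the Q808 comparisons. A single call among so few genes is no result about the list. The called gene was *Cacna1h*, a T-type calcium channel gene, at 19.2, 18.1 and 14.6 FPKM in the Con. and 11.6, 10.3 and 8.99 FPKM in the PTZ libraries (log2 difference -0.74, SE 0.17, limma adjusted p = 0.999). In Q808-2 *Cacna1h* read 17.8 FPKM, within the Con. range, and in Q808-1 it lay within the PTZ range.

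Likeness to *Shox2* was measured as Pearson's r over the 8 libraries on log2(FPKM + 0.1), as a description without a p, since the libraries fall into sets of 5 and 3 that all genes share, and the relation was not tested. *Lef1* was the most like *Shox2* of the 4 genes with r = 0.64 (Spearman's rho 0.46, rank 1452 of 15592 other genes), followed by *Tcf7l2* with 0.52 (rho 0.52, rank 2912). *Prkcd* (0.17, rho -0.04, rank 7981) and *Lhx9* (0.04, rho 0.13, rank 9645) lay below the median of 0.19 over all tested genes when all 8 libraries were used. Within the 5 libraries, a description over n = 5, r with *Shox2* was 0.97 for *Tcf7l2*, 0.82 for *Lhx9*, 0.65 for *Lef1* and 0.25 for *Prkcd*. No rank or median over all genes was taken within the 5 libraries, so that these values have no background. Without Q808-1 alone, r was 0.41 for *Lhx9*. Without PTZ-1 and PTZ-2, which lay farthest from the median of *Shox2*, r was 0.50 for *Lef1*, -0.05 for *Tcf7l2*, -0.20 for *Prkcd* and 0.28 for *Lhx9*. These 2 libraries hold the lowest *Shox2* values, so that leaving out both removes much of its range, and leaving out PTZ-1 or PTZ-2 alone gave 0.40 and 0.35 for *Tcf7l2*. The likeness of *Tcf7l2* and *Lhx9* to *Shox2* thus depended on which libraries were used.

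**Figure D5:**
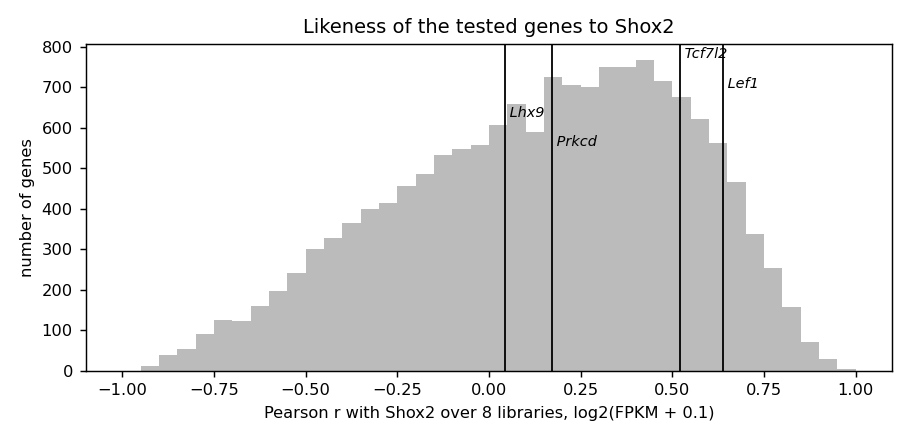
Number of tested genes (vertical axis) by Pearson's r with *Shox2* over 8 libraries (horizontal axis), with the 4 other genes as vertical lines. *Lef1* and *Tcf7l2* lie to the right of the median of 0.19, *Prkcd* and *Lhx9* to its left.

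The mean log2 value of the relay nuclei list had an r with *Shox2* of 0.57 (rho 0.43), beside 0.52 for the meningeal fibroblast, 0.52 for the choroid plexus, 0.49 for the endothelial and 0.41 for the microglia list, and without PTZ-1 and PTZ-2 it was 0.11. Taken singly, the genes of the relay nuclei list had a median r with *Shox2* of 0.18, with 9 of 12 above 0 and a range from -0.16 (*Cacna1g*) to 0.76 (*Amotl1*), beside a median of 0.19 over all tested genes. Higher medians were found for the choroid plexus (0.55, 7 genes), meningeal fibroblast (0.49, 7 genes), microglia (0.39, 7 genes) and endothelial markers (0.37, 7 genes), and lower ones for striatum (0.13, 6 genes) and habenula markers (-0.46, 3 genes). The 10 genes most like *Shox2* among 12563 with a mean of at least 1 FPKM included *Sirt4*, *Apba3*, *Vstm4*, *Adgra3*, *Khnyn*, *Gpx8*, *Ttf2*, *Ap3b1* and *Itga8*, and r over the 10 ran from 0.98 to 0.93. *Sirt4*, a mitochondrial sirtuin, measured 1.82, 1.56 and 1.49 FPKM in the Con., 1.13, 1.07 and 1.51 FPKM in the PTZ and 2.28 and 2.12 FPKM in the Q808 libraries. No gene of the thalamic list was among the 10.

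The other 4 genes had other neighbors. *Tcf7l2* was most like *Ints6l*, *Herc4*, *Aldh3a2*, *Ppt1* and a gene without a symbol (r from 0.99 to 0.99), and *Lef1* most like *Dera*, *P2ry12*, *Itgam*, *Tmcc2* and *P2ry13* (0.98 to 0.98), of which *P2ry12*, *Itgam* and *P2ry13* are microglia genes. *Lhx9* was most like *Klhl26*, *Wnt4*, *Lmo1*, *Unc5d* and *Zbtb18* (0.99 to 0.99), and *Wnt4* measured 10.7 to 24.8 FPKM in the 5 libraries and 1.54 to 2.31 FPKM in the 3. *Prkcd* was most like *Nuak2*, *Pold1*, *Itga9*, *Mad1l1* and *Dennd4a* (0.98 to 0.96). With the mean log2 value of the relay nuclei list, r was 0.94 for *Tcf7l2*, 0.85 for *Lef1*, 0.82 for *Prkcd* and -0.67 for *Lhx9*. Without the 2 libraries farthest from the median of each gene, r was 0.91, 0.36, 0.84 and -0.30, in that order. Over all 8 libraries, r for *Lhx9* was 0.96 with hippocampal pyramidal and 0.95 with dentate granule cell markers. *Lef1* had 0.93 with microglia and 0.91 with endothelial markers. *Tcf7l2* had 0.95 with endothelial, 0.90 with newly formed oligodendrocyte and 0.84 with striatum markers. *Prkcd* had 0.80 with both newly formed oligodendrocyte and striatum markers. High values were thus not particular to the thalamic list. Which cells the RNA of these genes came from was not tested. Between the 5 genes, r was 0.81 for *Tcf7l2* with *Lef1*, 0.81 for *Tcf7l2* with *Prkcd* and -0.81 for *Lhx9* with *Prkcd*, values that the sets of 5 and 3 libraries share and that were not tested.

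Markers of other cell types were called in few comparisons. Over all tested genes, 2.53% were called in PTZ against Con., 1.92% in Q808 against PTZ and 3.46% in Q808 against Con. Beside these shares, 0 or 1 call in a list is no result about a cell type. None of the striatum (6 tested, such as *Rgs9*), choroid plexus (7, such as *Ttr* and *Clic6*), myelinating oligodendrocyte (8, such as *Mbp*), newly formed oligodendrocyte (4, such as *Gpr17* and *Enpp6*) and dentate granule cell markers (4, such as *C1ql2* and *Dock10*) was called. *Slc6a13*, a GABA transporter of the meninges, was called higher in Q808 against PTZ (log2 difference 1.77, 1 of 7 meningeal markers), and *Pecam1* in PTZ against Con. (0.63) and *Cldn5* in Q808 against Con. (0.65), each 1 of 7 endothelial markers. The microglia markers *Tmem119* in PTZ against Con. (0.60) and *Aif1* in Q808 against Con. (0.79) were called higher, each 1 of 7, and the pyramidal cell marker *Pou3f1* was called lower in Q808 against Con. (-0.69, 1 of 7). Limma's adjusted p was at least 0.901 for each of these. Newly formed oligodendrocyte markers, summed, were highest in Q808-1 (44.0 FPKM) and the other striatum-rich libraries (26.5 and 28.2 FPKM, against 14.4 to 19.8 FPKM), the libraries in which *Tcf7l2* was highest, and their part in the *Tcf7l2* values was not tested.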

How the data were processed

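RNA-seq of hippocampal tissue from 8 rats was analysed. After trimming (Trimmomatic) and mapping, the authors calculated with Cufflinks the FPKM of each gene, which they deposited; the submitters' processing notes also name HISAT2, Bowtie2, StringTie, SAMtools, HTSeq and DESeq, and the genome build and the versions are not given in the sources used here. Groups were taken from the labels. The authors' read counts and differential tests were not used here.

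Reads were recovered as the smallest whole numbers that fit the FPKM of a gene at the relative depths of the libraries, for 17196 of 17729 genes with a value in at least 2 libraries (97.0%, tolerance 0.01). They rest on the assumption that the smallest whole numbers are the true ones, and the count of a gene could be a multiple. Exact Poisson intervals and limits of 3 reads cover counting error only. Symbols came from the RefSeq gene table (GRCr8) for 20633 genes.

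limma 3.58.1 in R 4.3.3 was fitted to log2(FPKM + 0.1) of each comparison's own 2 groups, with a mean-variance trend, over the 15593 genes whose mean over the libraries reached 0.1 FPKM, and genes past 1.5-fold and an unadjusted p of 0.05 were called, with Benjamini-Hochberg adjustment over all genes. Python 3.11.15 (numpy 2.4.6, pandas 2.3.3, scipy 1.17.1, matplotlib 3.10.9) was used for the rest. The procedure was tested on simulated data. p-values measure the spread between rats, with 1 library each.

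The genes and lists were chosen with earlier results of these data known, and so was the division into 5 and 3 libraries by striatum markers. Named genes were the 5 genes, the genes of each list that were called (at most 4) or else the 2 with the highest mean FPKM, and the nearest neighbors of each gene by Pearson's r among genes with a mean of at least 1 FPKM. Other named genes are marked as chosen after their values were seen. Some genes that the rule picks are not reported here.

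Replicate numbers of the labels were checked as a pairing. Deviations from the group mean of same-numbered Con. and PTZ libraries correlated at 0.212, 0.299 and 0.422. The Q808 libraries gave -0.295 and 0.322 with the PTZ libraries and -0.379 and 0.527 with the Con. libraries. In the 3 pairs of Con. and PTZ, the third holds the striatum-rich libraries Con.-3 and PTZ-3. Deviations within a group depend on each other, so that this shared trait can raise all 3 values. Libraries of unlike number were not compared, and a pairing by number is therefore not shown. Alternatives covered the pseudocount, the filter, the variance model, the scaling, the threshold, the replicate block and each library left out.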

Additional observations from a re-analysis of the deposited data

How the results depend on the processing

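The number of called genes in PTZ against Con. (395) was 219 with a pseudocount of 1, 191 with a 2-fold threshold, 616 with the replicate block, 1530 without the 3 striatum-rich libraries, and 249 (without PTZ-2) to 1135 (without PTZ-3) with a library left out. In Q808 against PTZ (300) it was 193 with a mean of at least 1 FPKM, 183 with a 2-fold threshold, 1894 with the replicate block, 1444 without the 3 libraries, and 132 (without PTZ-1) to 1569 (without PTZ-3). In Q808 against Con. (540) it was 340, 257 and 1076 with a pseudocount of 1, a 2-fold threshold and the replicate block, and 279 (without Con.-2) to 1799 (without Q808-2). Quantile normalization turned the split of higher and lower calls in Q808 against PTZ from 212 and 88 to 130 and 142, and in Q808 against Con. from 479 and 61 to 283 and 158. The cause was not tested. With the replicate block *Tcf7l2* (0.77), *Lef1* (1.06) and *Prkcd* (0.79) were called in Q808 against PTZ, as were 12.15% of all tested genes. *Prkcd* (1.15) was called in Q808 against Con., as were 6.90% of all tested genes. In both comparisons the libraries share only a number and the block leaves out the unmatched library.

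Signs turned as follows, none past the call. In PTZ against Con., *Tcf7l2* was 0.02 without Con.-3, 0.048 without PTZ-2 (lowest -0.42) and 0.17 within the 3 libraries, *Lef1* 0.20 without PTZ-2 (lowest -0.29) and 0.37 within the 3, *Lhx9* 0.38 within the 3 and *Prkcd* -0.092 without PTZ-3 (highest 0.75). In Q808 against PTZ, *Lhx9* was 0.10 with a pseudocount of 1, 0.91 without the 3 libraries, and -1.93 to 1.59 with a library left out (0.26 without PTZ-1, 0.07 without PTZ-2), and *Prkcd* was -0.27 within the 3. In Q808 against Con., *Lhx9* was -2.66 to 0.86 and *Prkcd* -0.089 within the 3. *Shox2* kept its sign in all 3 comparisons under every setting run (a minimum mean of 1 FPKM leaves out *Shox2* and *Lhx9*), at -4.10 to -0.44, 1.15 to 5.85 and 0.71 to 2.09. The fits on recovered reads (voom) and within the 3 libraries were chosen after seeing the data. Depth limits *Shox2* to 0 to 30 reads a library.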
